A study of Mus musculus with 20 samples.

Results

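The T cell receptor is the antigen receptor of T lymphocytes, and its chains are encoded in separate gene segments that are joined by DNA rearrangement in each cell. The rows of the deposited expression table whose gene symbol is a variable (V), diversity (D), joining (J) or constant (C) segment of an alpha, beta, gamma or delta chain were taken, 265 of 46744 rows. The choice used the names and a value above 0 in at least 1 group of samples, and no comparison between groups. A value above 0 was listed in at least 1 group for 101 of the 265 rows, 85 of alpha and beta chains and 16 of gamma and delta chains. All 267 receptor symbols on these rows belong to a T cell receptor class in GENCODE, the reference gene annotation used here for classes and positions.

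The study sequenced RNA of whole skin in 20 samples, all of the inbred mouse strain C57BL/6. Controls had the genotype Sod2+/+, with 5 samples aged 50 days, 2 aged 100 days, 3 aged 300 days and 4 aged 700 days. Conditional knockout skin, written cKO here, had the genotype Sod2-/-, with 3 samples aged 100 days and 3 aged 300 days. Sod2 encodes the superoxide dismutase of mitochondria, and the cells that lost it are not named in the labels. The 50-day and 700-day controls share one title prefix and the 100-day and 300-day samples another, so differences were taken only within a prefix. Whether the samples of a group came from separate mice is not stated.

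The table gives 1 value per group in FPKM, a level scaled to transcript length and library size, so the spread between samples and the depth are unknown and no test could be made. Sod2 itself stood at 27.7 FPKM in 100-day control and 17.6 FPKM in 100-day cKO skin, and at 23.5 FPKM in 300-day control and 16.8 FPKM in 300-day cKO skin. Malat1, a nuclear RNA of nearly all cells, was listed at 0 in both the 50-day and the 700-day controls and at 6080 FPKM or more in the other 4 groups. For that reason rows at 0 are described as listed at 0, without a fold against them. The groups of both genotype comparisons and of 700 against 50 days also differ in transcripts of the Y chromosome. Eif2s3y stood at 45.1, 45.0 and 37.5 FPKM in the 700-day control, the 100-day cKO and the 300-day cKO groups, and at 0.347 FPKM or less in the other 3 groups. Its part in those comparisons cannot be told apart from genotype or age. Between 100 and 300 days, Eif2s3y was listed at 0 in both control groups and stood at 45.0 and 37.5 FPKM in cKO skin.

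Alpha-beta T cells recognise peptides on MHC molecules and recirculate through blood, lymph nodes and tissues. Mouse epidermis also holds dendritic epidermal T cells, a resident population whose gamma-delta receptor is nearly the same in every cell: Tcrg-V5 joined to Trgj1 and Tcrg-C1, and Trdv4 joined to Trdd2, Trdj2 and Trdc. In whole tissue, fewer T cells and less receptor RNA per cell cannot be told apart.

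The rows above 0 were V segments and constant regions, while every D and J segment was listed at 0. Of 173 V rows 93 were above 0: 54 of 128 alpha, 28 of 33 beta, 6 of 6 gamma and 5 of 6 delta. All 8 constant regions were above 0. The 80 J and 4 D rows were listed at 0 in every group. They are 11 to 72 bases long, all shorter than the 75-base read, and the shortest row with a value was 167 bases long. The segments of the dendritic epidermal receptor show these lengths. The sequences are from GENCODE M21 transcripts on GRCm38 (mm10), the build that the submitters' processing notes name. Capitals in the V segments mark the codon of the conserved cysteine at the start of the junction, and capitals in the J segments mark the codons of the conserved phenylalanine motif at its end. Of each V segment the second coding exon is shown, and the D segment has no capitals.
Tcrg-V5, V exon (chr13:19192428-19192725, plus strand): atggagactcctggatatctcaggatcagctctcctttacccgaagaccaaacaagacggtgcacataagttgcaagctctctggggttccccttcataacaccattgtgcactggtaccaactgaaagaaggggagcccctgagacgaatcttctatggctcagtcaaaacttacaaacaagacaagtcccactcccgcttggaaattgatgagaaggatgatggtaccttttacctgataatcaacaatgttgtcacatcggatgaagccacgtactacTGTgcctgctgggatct
Trgj1 (chr13:19210343-19210402, plus strand): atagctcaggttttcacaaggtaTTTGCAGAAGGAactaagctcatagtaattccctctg
Trdv4, V exon (chr14:54075217-54075515, plus strand): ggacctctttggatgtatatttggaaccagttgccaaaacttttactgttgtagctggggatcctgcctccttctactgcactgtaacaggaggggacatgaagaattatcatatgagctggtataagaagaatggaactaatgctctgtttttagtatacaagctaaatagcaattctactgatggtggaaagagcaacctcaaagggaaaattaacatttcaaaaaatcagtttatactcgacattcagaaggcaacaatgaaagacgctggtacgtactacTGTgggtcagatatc
Trdd2 (chr14:54122226-54122241, plus strand): atcggagggatacgag
Trdj2 (chr14:54136779-54136837, plus strand): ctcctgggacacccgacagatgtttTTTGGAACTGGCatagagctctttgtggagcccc
The V exons have 298 and 299 bases. The D and J segments between them and the constant regions have 16, 59 and 60 bases, so a read of 75 bases cannot lie inside one of them.

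Among the constant regions the alpha and beta chains had their highest level in the 300-day control group, and Tcrg-C1 and Trdc had theirs in the 50-day control group. Such orders run across both title prefixes and only list the levels. Trac, the only alpha constant region (chr14:54220521-54224206), stood at 0.705 FPKM at 50 days, 1.98 FPKM at 700 days, 0.836 FPKM in 100-day control, 0.361 FPKM in 100-day cKO, 24.8 FPKM in 300-day control and 0.439 FPKM in 300-day cKO skin. The 300-day control group alone was above 2 FPKM. Trbc1, the first beta constant region (chr6:41538218-41539881), stood at 4.41, 10.6, 0.831, 2.18, 21.4 and 3.49 FPKM in the same order. Trbc2, the second (chr6:41546730-41548352), stood at 13.7, 19.3, 5.09, 2.96, 26.7 and 6.92 FPKM. Both beta constant regions were next highest in the 700-day controls, and their order among the other groups differed.

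**Figure D1:**
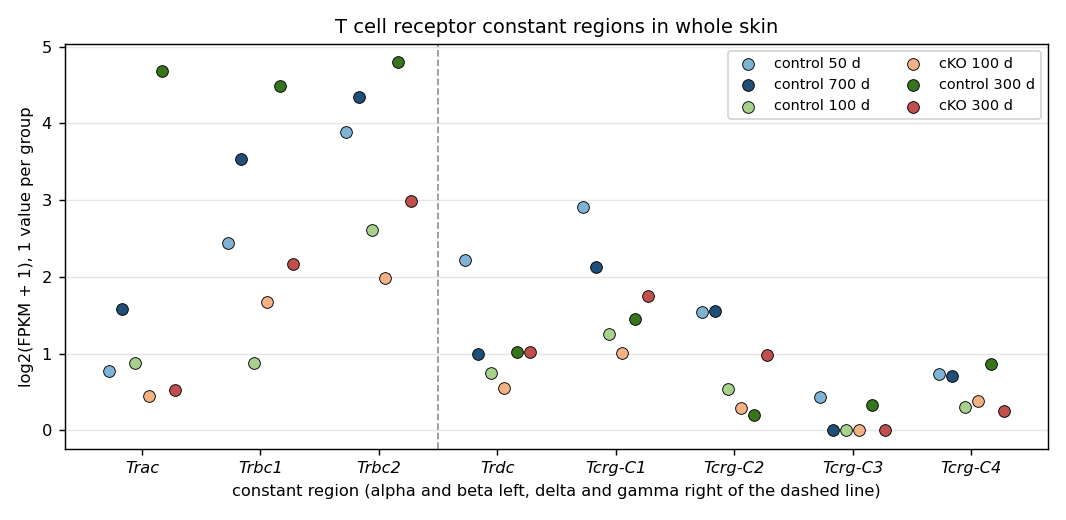
Levels of the 8 constant regions as log2(FPKM + 1), with 1 point per group and no error since the table holds 1 value per group. Trac, Trbc1 and Trbc2 are highest in the 300-day control group (24.8, 21.4 and 26.7 FPKM), and Trdc and Tcrg-C1 in the 50-day control group (3.66 and 6.51 FPKM).

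How reads were split between Trbc1 and Trbc2 is uncertain because their first exons are nearly the same. Exon 1 has 375 bases in each gene and differs at 1 base, C260A, counted from 1 at the 5′ end of the exon with the base of Trbc1 first. Bases 161 to 360 of the exon are shown because the difference lies there, with that base in capitals.
Trbc1 exon 1 (chr6:41538378-41538577, plus strand, GENCODE M21): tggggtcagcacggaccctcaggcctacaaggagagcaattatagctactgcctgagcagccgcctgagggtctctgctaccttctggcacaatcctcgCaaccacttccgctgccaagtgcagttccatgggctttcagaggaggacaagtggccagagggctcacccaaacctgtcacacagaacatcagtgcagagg
Of the 301 windows of 75 bases in the exon 226 (75.1%) are identical in Trbc2. Over the whole transcripts 34.6% of the windows of Trbc1 and 37.7% of those of Trbc2 occur in another receptor transcript. The sum of the pair depends less on that split, as the longest transcripts have 737 and 692 bases. How reads that fit both genes were counted is not stated. The sum was 18.1, 29.9, 5.92, 5.15, 48.1 and 10.4 FPKM in the order above.

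The gamma and delta constant regions were lower than Trbc2 in every group and, except for Tcrg-C4, were highest in a 50-day or 700-day control group. The title prefixes differ in other rows as well, Malat1 among them, so nothing is read from an order across them. Trdc, the delta constant region (chr14:54142851-54148868), stood at 3.66 FPKM at 50 days, 0.988 FPKM at 700 days, 0.680 FPKM in 100-day control, 0.468 FPKM in 100-day cKO, 1.02 FPKM in 300-day control and 1.03 FPKM in 300-day cKO skin. Tcrg-C1, the gamma constant region of the epidermal receptor (chr13:19214103-19217024), stood at 6.51, 3.39, 1.39, 1.01, 1.74 and 2.36 FPKM. Both were highest at 50 days and lowest in 100-day cKO skin. Tcrg-C2 stood at 1.92, 1.94, 0.453, 0.219, 0.153 and 0.980 FPKM, with nearly the same level at 50 and 700 days, where Tcrg-C1 was 6.51 and 3.39 FPKM. Tcrg-C4 was highest in 300-day control skin, as the alpha and beta regions were, at 0.827 FPKM, and lowest in 300-day cKO skin at 0.187 FPKM. Tcrg-C3 was above 0 only in the 50-day (0.351 FPKM) and 300-day (0.257 FPKM) controls. First exons of Tcrg-C1 and Tcrg-C2 differ at 9 of 330 bases and share no window of 75 bases, while Tcrg-C1 and Tcrg-C3 differ at 13 and share 16 of 256 windows. On the opposite strand Trdc overlaps Trdv5 and Gm43434, and Tcrg-V5 and Trdv4 overlap antisense genes. The libraries were directional, but whether counting used the strand is not stated, so reads of these partners may be mixed.

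Control and cKO skin at 300 days differed in the alpha and beta chains, and of the epidermal gamma-delta receptor no segment was counted in either direction. The comparison sets Sod2 cKO skin against control skin at the older of the ages sampled in both genotypes. Ratios are log2 of (FPKM + 1) over (FPKM + 1), and a row with a ratio of 1 or more was counted higher, one of -1 or less lower. The log2 ratio of cKO to control was -4.16 for Trac, -2.32 for Trbc1 and -1.81 for Trbc2. It was 0.01 for Trdc, 0.30 for Tcrg-C1, 0.06 for Tcrg-V5 and -0.64 for Trdv4, which stood at 3.75 FPKM in control and 2.05 FPKM in cKO skin.

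Of the 9 receptor rows whose 6 group values averaged 1 FPKM or more, all 4 of alpha and beta chains (Trac, Trbc1, Trbc2 and Trbv13-2) were counted lower and none of the 5 of gamma and delta chains was counted in either direction. The background was 5.17% of 12249 rows counted lower and 1.95% counted higher, and the median log2 ratio was -2.81 for the 4 rows and -0.01 for all rows. Trac and Trbv13-2 reached the mean of 1 FPKM through the 300-day control group, so their lower level elsewhere follows from the filter. Among all 85 alpha and beta rows 21 were counted lower and 0 higher, beside a background of 4.14% lower and 1.44% higher over the 19044 rows above 0 in a group. Of these 21 rows 17 are listed at 0 in cKO skin. Of the 85 rows 61 were below and 1 above the control level, but 23 alpha and 3 beta V rows have a value in 300-day control skin alone and could not lie otherwise. Nothing is read from these counts beyond the levels themselves. Among the 16 gamma and delta rows 8 were below and 4 above the control level.

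The V segments of the 300-day control group spread over most of the beta locus. Of the 21 beta V rows of the functional class 19 were above 0, and of the 12 of the pseudogene class 1. Trbv13-2 was highest at 8.86 FPKM, 17.3% of the summed beta V level. Its second coding exon (294 bases) is shown as the leading alpha-beta V segment, with the conserved cysteine codon in capitals.
Trbv13-2, V exon (chr6:41121539-41121832, plus strand, GENCODE M21): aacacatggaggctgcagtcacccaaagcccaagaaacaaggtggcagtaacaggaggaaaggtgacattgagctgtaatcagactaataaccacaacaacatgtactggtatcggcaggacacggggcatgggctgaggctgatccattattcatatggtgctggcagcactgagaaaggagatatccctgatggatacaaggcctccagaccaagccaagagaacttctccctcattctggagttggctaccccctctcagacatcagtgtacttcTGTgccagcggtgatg
Trbv13-2 stood at 0.0906 FPKM at 50 days and 0.711 FPKM at 700 days, and it was listed at 0 in 100-day control, 100-day cKO and 300-day cKO skin. The next highest were Trbv13-1 at 4.35 FPKM, Trbv29 at 4.24 FPKM, Trbv17 at 4.10 FPKM, Trbv20 at 3.85 FPKM and the row that joins Trbv4, Trbv5 and 5830405F06Rik at 3.60 FPKM. In all 13 beta V rows reached 1 FPKM. In 300-day cKO skin 2 beta V rows were above 0, Trbv17 at 0.298 FPKM and a joint row of Trbv8, Trbv10 and Gm37610 at 0.123 FPKM, while the summed beta constant regions stood at 10.4 FPKM.

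Alpha V rows were lower and more scattered. In 300-day control skin 38 of 128 were above 0, and 5 reached 1 FPKM: Trav14n-3 at 3.45 FPKM, Trav14-1 at 2.09 FPKM, Trav6n-6 at 1.72 FPKM, Trav14-2 at 1.36 FPKM and Trav7-6 at 1.01 FPKM. These 5 rows were listed at 0 in the other 5 groups. In 300-day cKO skin all 128 alpha V rows were listed at 0, with Trac at 0.439 FPKM. That group also had the lowest share of rows above 0 over the whole table, 50.1% beside 56.7% in 300-day control skin. The part of this in the alpha and beta V rows listed at 0 was not tested. The mouse alpha locus holds duplicated blocks, and 73 alpha V rows carry a d or n in the name for such a copy. Of those 73 rows 14 were above 0, and the median share of 75-base windows that occur in another receptor transcript was 100%. Of the 55 rows without that letter 40 were above 0, with a median share of 18.6%. Beta V rows shared no window with another receptor transcript. The level of 1 alpha V row against its copies is therefore uncertain, and reads that fit several copies may be missing from all of them.

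**Figure D2:**
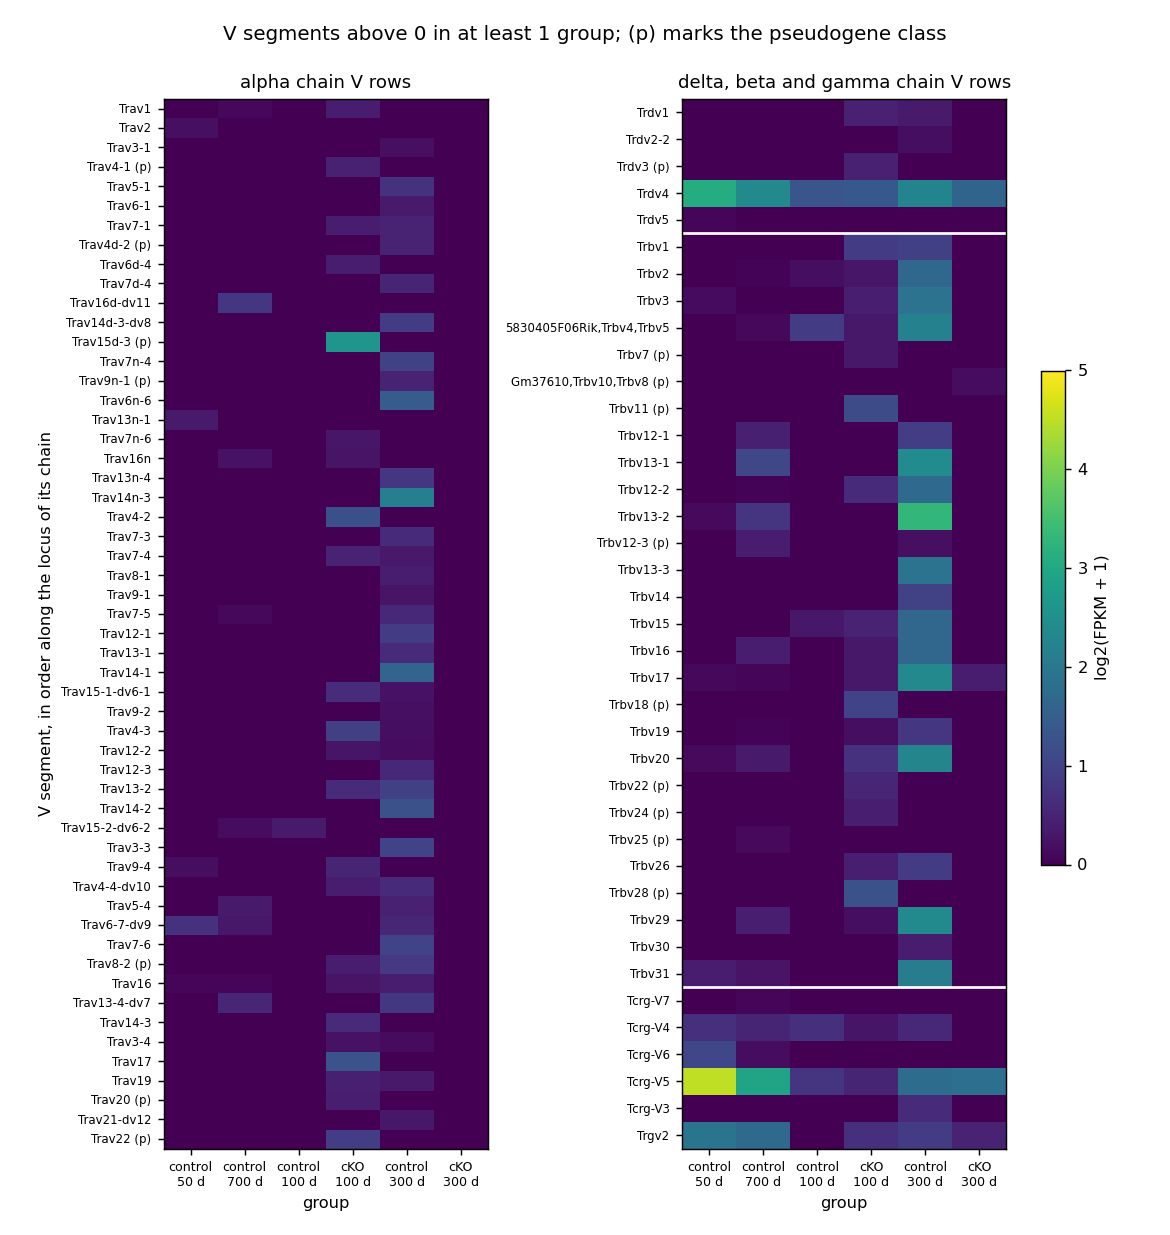
Level of each of the 93 V rows above 0 in a group, as log2(FPKM + 1), in the order of each locus, with the pseudogene class marked (p). The 300-day control column holds most alpha and beta V rows (58 of 82), the 100-day cKO column holds 41 of which 11 are pseudogenes, and Tcrg-V5 and Trdv4 are the rows above 0 across all groups.

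Summed V and constant region levels were close in 300-day control skin for both the alpha and the beta chain. In 300-day control skin the 128 alpha V rows summed to 24.8 FPKM and Trac stood at 24.8 FPKM. The beta V rows there summed to 51.2 FPKM beside 48.1 FPKM for Trbc1 and Trbc2, a ratio of 1.06. At 50 days the beta V rows summed to 0.670 FPKM and the beta constant regions to 18.1 FPKM, a ratio of 0.0369. The ratio was 0.132 at 700 days, 0.212 in 100-day control skin and 0.0405 in 300-day cKO skin. In these 4 groups the beta constant regions were thus far above the beta V rows. For the alpha chain the ratio was 1.83 at 50 days, 1.13 at 700 days and 0.340 in 100-day control skin, over sums of at most 2.24 FPKM. In the gamma chain the V rows summed to 26.3 FPKM beside 9.46 FPKM of constant regions at 50 days and to 9.55 beside 5.96 FPKM at 700 days. In the delta chain they summed to 7.59 beside 3.66 FPKM at 50 days and to 4.11 beside 0.988 FPKM at 700 days. The ratio of V to constant regions was between 0.616 and 2.78 for gamma and between 1.99 and 5.01 for delta chains in all 6 groups.

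**Figure D3:**
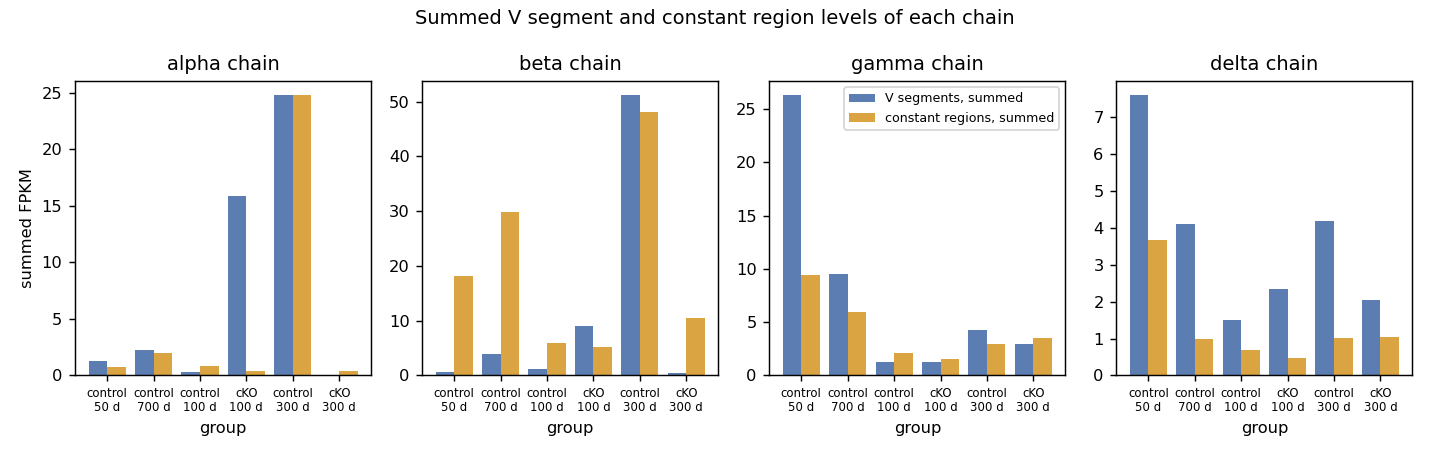
Summed FPKM of all V segments (blue) and all constant regions (yellow) of each chain in each group, on separate linear scales from 0. In the 300-day control group the alpha bars are equal at 24.8 FPKM and the beta bars are 51.2 and 48.1 FPKM, and at 50 days the beta bars are 0.670 and 18.1 FPKM.

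The genes that accompany an alpha-beta receptor stood with it in the 300-day comparison. Of 26 genes of the CD3 chains, co-receptors and proximal signalling 20 had a mean of at least 1 FPKM, and 18 of the 20 were counted lower in cKO than in control skin, with a median log2 ratio of -1.87 beside -0.01 over all rows. Ptprc (CD45, a phosphatase of all leukocytes) stood at 89.2 FPKM in control and 13.0 FPKM in cKO skin. Lck, the kinase that starts receptor signalling, stood at 35.0 and 1.80 FPKM on a row shared with Mir8119. Cd3g, a signalling chain of both receptor types, stood at 21.2 and 5.94 FPKM. The co-receptor genes Cd4 (10.9 FPKM) and Cd8b1 (8.32 FPKM) were at most 0.912 FPKM in the other 5 groups. Of 11 measured genes of dendritic epidermal and other gamma-delta T cells 4 were also counted lower and 0 higher, beside the same background. In control and cKO skin at 300 days Fcer1g stood at 22.5 and 10.1 FPKM and Cd7 at 5.00 and 1.76 FPKM. Xcl1 stood at 2.47 and 0.642 FPKM and Il2rb at 2.94 and 0.721 FPKM. The median log2 ratio of the 11 was -0.02. Il2rb reached the mean of 1 FPKM only through the 300-day control group.

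Markers of other lymphocytes were high in the same 300-day control group. All 12 B cell genes were counted lower in 300-day cKO than in control skin, and their summed level was 459.8 FPKM in 300-day control skin and between 8.85 and 17.7 FPKM in the other 5 groups. Igkc, an antibody light chain, stood at 240.2 FPKM in that group and at 5.76 FPKM or less elsewhere. Of 9 genes of recirculating and naive lymphocytes 7 were counted lower, among them S1pr1, a receptor that guides lymphocytes out of lymph nodes, at 16.7 FPKM in control and 5.31 FPKM in cKO skin. Summed, these 9 stood at 152.0 FPKM in 300-day control and at 45.8 to 91.4 FPKM in the other groups. Among 8 genes of lymph node stroma Glycam1, a mucin of lymph node vessels that mammary gland also makes, stood at 73.6 FPKM in 300-day control skin and at 0.515 FPKM or less elsewhere. Cxcl13, a chemokine that attracts B cells, stood at 11.1 FPKM there and at 17.7 FPKM in 100-day cKO skin. Ccl21a was listed at 0 in every group. Coch, at 6.04 and 6.09 FPKM, and Fcamr, at 1.61 and 1.75 FPKM, stood at like levels in control and cKO skin at 300 days, so that 2 of the 4 measured genes of this list were counted lower. Of 9 macrophage genes 5 were counted lower in cKO skin, led by Lyz2 at 150.0 and 61.7 FPKM. Other tissue differed as well: 4 of 6 adipocyte genes were counted lower in cKO skin, with summed levels of 4364 and 2192 FPKM, and 2 of 7 keratinocyte genes higher, Krt1 with a log2 ratio of 1.64 and Krt14 of 1.42. The part of these cells in the alpha and beta chain levels was not tested. With 1 value per group it is also unknown whether the level came from all 3 samples of the 300-day control group or from fewer.

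Between 100 and 300 days in control skin the same group stood apart. The comparison shares the 300-day control group with the genotype comparison above, so it is no separate support for it. The log2 ratio of 300 to 100 days was 3.81 for Trac, 3.61 for Trbc1 and 2.19 for Trbc2. All 4 alpha and beta rows that passed the filter were counted higher, beside a background of 3.52% higher and 1.04% lower. For Trac and Trbv13-2, which passed through the 300-day control group, that direction was built in, and nothing is read from the count. Of the 5 gamma and delta rows 1 was counted higher, Tcrg-V5 with a log2 ratio of 1.02, which was 0.93 after rescaling the groups to a common median. Without the filter 21 of 85 alpha and beta rows were counted higher, 15 of them listed at 0 at 100 days, and 0 lower, beside a background of 2.96% higher and 0.798% lower. Trdv4 had a ratio of 0.93, Trdc of 0.27 and Tcrg-C1 of 0.20. In cKO skin the 300-day to 100-day ratio was 0.08 for Trac, 0.50 for Trbc1, 1.00 for Trbc2 (just under the size counted) and 1.30 for Tcrg-V5, the 1 receptor row of 9 counted there, beside a background of 2.42% higher and 1.62% lower. Without the filter 6 alpha and beta rows were counted lower between the cKO ages, all V rows listed at 0 at 300 days, beside a background of 1.41% lower and 1.69% higher. Tcrg-V5 stood at 0.681 and 2.41 FPKM in control and at 0.441 and 2.55 FPKM in cKO skin at 100 and 300 days.

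At 100 days no receptor row with a mean of at least 1 FPKM was counted between cKO and control skin, where the background was 2.33% higher and 4.28% lower. The log2 ratio was -0.43 for Trac, 0.80 for Trbc1 and -0.62 for Trbc2, and -0.22 for Tcrg-V5, 0.06 for Trdv4, -0.19 for Trdc and -0.25 for Tcrg-C1. Without the filter 6 of 85 alpha and beta rows were counted higher, and 0 lower, beside a background of 1.76% higher and 2.98% lower, and all 6 are V rows listed at 0 in control skin. Of these, 4 belong to the pseudogene class: Trav15d-3 at 5.13 FPKM, Trbv28 at 1.37 FPKM, Trbv11 at 1.23 FPKM and Trbv18 at 1.01 FPKM. The other two are Trav17 at 1.43 FPKM and Trav4-2 at 1.34 FPKM. None of the 6 was above 0 in another group. The summed alpha V level was 15.8 FPKM beside 0.361 FPKM for Trac, and the summed beta V level 9.05 FPKM beside 5.15 FPKM for the constant regions.

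The V rows above 0 in 100-day cKO skin were of another make-up than those of 300-day control skin. In 100-day cKO skin 12 of 21 functional beta V rows (57.1%) and 6 of 12 pseudogene beta V rows (50.0%) were above 0, against 19 of 21 (90.5%) and 1 of 12 (8.33%) in 300-day control skin. Of the alpha and beta V rows, 41 were above 0 in 100-day cKO and 58 in 300-day control skin, and 23 in both, 56.1% of the first and 39.7% of the second. Other genes usually silent in skin moved in the same group. Of 1081 olfactory receptor rows, a family of odour receptors expressed mainly in the nose, 831 (76.9%) were above 0 in 100-day cKO skin and 60 to 193 (5.55% to 17.9%) in the other 5 groups. Over all 46744 rows 69.9% were above 0 there and 50.1% to 60.0% elsewhere. The part that such low values across the genome have in the V levels of 100-day cKO skin was not tested.

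**Figure D4:**
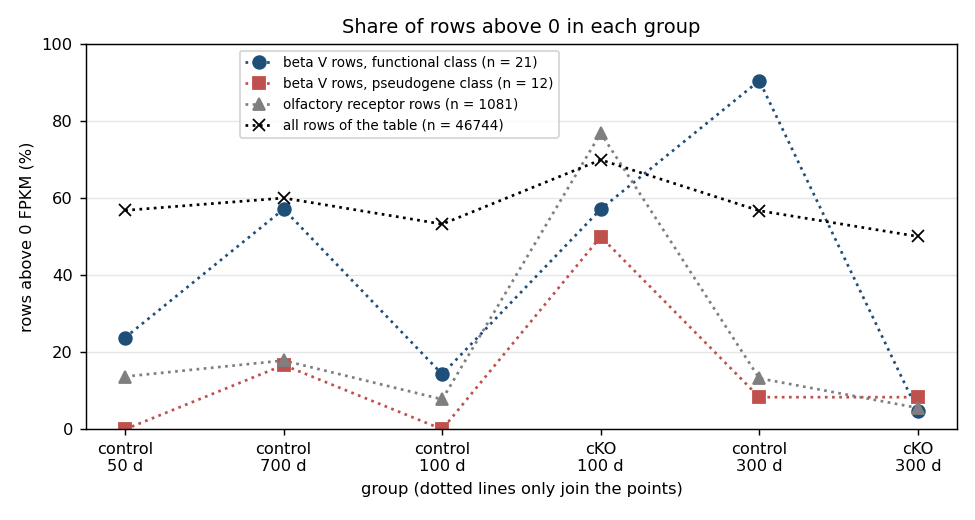
Share of rows above 0 FPKM in each group for beta V rows of the functional and pseudogene classes, olfactory receptor rows and all rows of the table. In the 300-day control group functional beta V rows (90.5%) stand far above pseudogene rows (8.33%), and in the 100-day cKO group both (57.1% and 50.0%) are high together with olfactory receptor rows (76.9%).

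Between 50 and 700 days in control skin the segments of the epidermal gamma-delta receptor were lower in the older group, and the alpha and beta constant regions were higher. The comparison addresses skin ageing in wild-type mice. Tcrg-V5 stood at 21.8 FPKM at 50 days and 6.62 FPKM at 700 days, a log2 ratio of -1.58. Trdc had a ratio of -1.23, Tcrg-C1 of -0.77 and Trdv4, at 7.54 and 4.11 FPKM, of -0.74. Of the 5 gamma and delta rows that passed the filter 5 were below their 50-day level and 2 were counted lower (Tcrg-V5 and Trdc), beside a background of 3.28%. Of the 4 alpha and beta rows 4 were above and 1, Trbc1, was counted higher at a ratio of 1.10, beside a background of 0.735%. Trac had a ratio of 0.81 and Trbc2 of 0.46. The median of all rows was -0.03. Without the filter 2 of 85 alpha and beta rows were counted higher (Trbc1 and Trbv13-1) beside a background of 0.53%, and 2 of 16 gamma and delta rows lower beside 2.16%.

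Tcrg-V5 was the leading gamma V segment in 5 of 6 groups, and Trdv4 the leading delta V segment in all 6. Tcrg-V5 made up 82.9% of the summed gamma V level at 50 days, 69.3% at 700 days, 53.1% and 56.5% in control skin and 34.4% and 86.4% in cKO skin at 100 and 300 days. Trgv2, a V segment of another cluster of the gamma locus, was second at 50 and 700 days with 2.81 and 2.31 FPKM and was first in 100-day cKO skin with 0.622 FPKM. Tcrg-V6, used by gamma-delta cells of dermis and mucosal tissues, stood at 1.09 FPKM at 50 days and 0.120 FPKM at 700 days, and it was listed at 0 in the other 4 groups. Tcrg-V4, used by gamma-delta cells of dermis and lymph nodes, was between 0.219 and 0.602 FPKM in 5 groups and listed at 0 in 300-day cKO skin. Trdv4 made up 99.3% of the summed delta V level at 50 days, 68.0% in 100-day cKO skin, 89.7% in 300-day control skin and 100% in the other 3 groups.

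Other epidermal genes were mixed at 700 against 50 days, and none of the Skint or Langerhans cell genes was counted. The Skint family, keratinocyte membrane proteins of which Skint1 is needed for the development of dendritic epidermal T cells, had a median log2 ratio of 0.16 over its 11 genes, with ratios from -0.26 (Skint7) to 0.61 (Skint1), and a summed level of 648.1 FPKM at 50 days and 701.6 FPKM at 700 days. Skint1 stood at 78.4 and 120.2 FPKM. Cd207, the langerin gene of Langerhans cells, which share the epidermis with these T cells, stood at 14.1 and 14.2 FPKM. Of the 6 genes of the Langerhans cell list, Cd74 had a log2 ratio of -0.79, Mfge8 of -0.66 and H2-Aa of -0.46, of about the size of Tcrg-C1 and Trdv4, and all 3 are also made by other cells. Of 7 keratinocyte genes 2 were counted higher and 0 lower, beside a background of 0.735% higher and 3.28% lower. Other tissues did differ. At 700 days 5 of 5 skeletal muscle genes, 6 of 6 adipocyte genes and 5 of 9 macrophage genes were counted lower, beside the same 3.28%. Summed muscle levels were 2797 FPKM at 50 days and 71.1 FPKM at 700 days. The part of such a shift in what the skin samples held in the receptor levels was not tested. Of 11 measured genes of dendritic epidermal and other gamma-delta T cells 1 was counted lower, Xcl1, a chemokine of activated lymphocytes, at 7.32 and 2.06 FPKM. Cd7, a surface protein of T cells, stood at 9.09 and 4.56 FPKM, Fcer1g, a signalling adaptor of Fc receptors, at 7.93 and 4.32 FPKM and Klrk1, the activating receptor NKG2D, at 5.57 and 3.23 FPKM. Cd3g stood at 16.8 and 9.61 FPKM, and of the 20 measured CD3 and signalling genes 0 were counted.

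**Figure D5:**
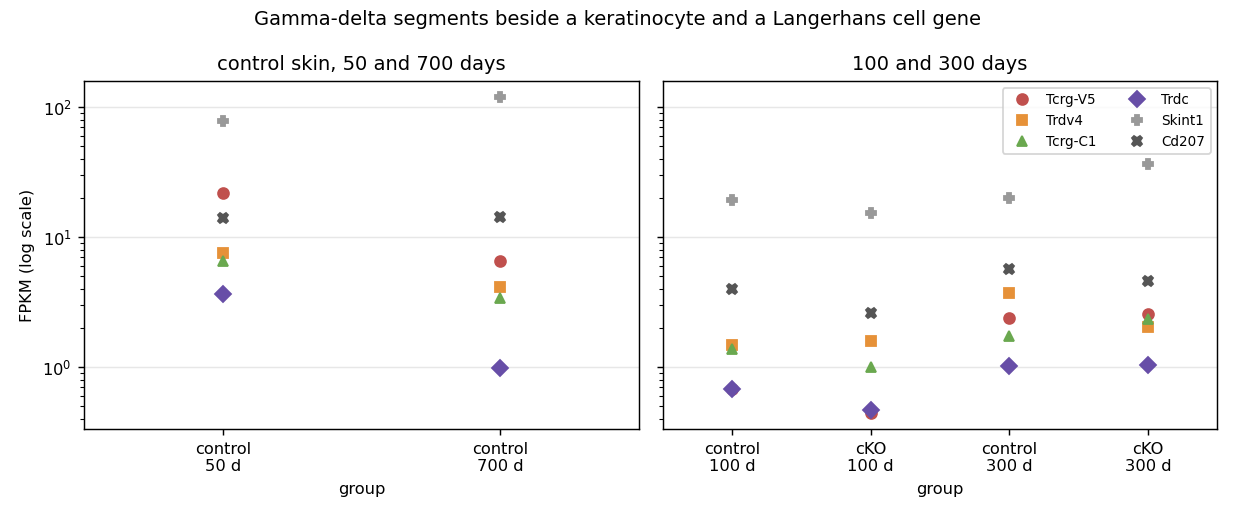
Levels in FPKM (log scale) of the 4 measured segments of the epidermal gamma-delta receptor beside Skint1 of keratinocytes and Cd207 of Langerhans cells, with the title prefixes in separate panels. The 4 segments are lower at 700 than at 50 days (Tcrg-V5 21.8 and 6.62 FPKM) while Cd207 is level (14.1 and 14.2 FPKM), and Tcrg-V5 is 2.41 FPKM in control and 2.55 FPKM in cKO skin at 300 days.

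In the 100-day and 300-day samples, which are not compared here with the other title prefix, the Skint family summed to between 120.3 and 204.1 FPKM and the 7 keratinocyte genes to between 2181 and 3553 FPKM. At 300 days, where Tcrg-V5 stood at 2.41 FPKM in control and 2.55 FPKM in cKO skin, Skint1 stood at 20.1 and 36.9 FPKM and Cd207 at 5.75 and 4.60 FPKM.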

How the data were processed

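RNA of whole mouse skin, 20 samples in 6 groups, was sequenced after ribosomal RNA removal with 1 of 2 kits, per the labels' protocols, which do not say which sample had which. Source names and genotypes gave the groups. The authors deposited FPKM, 1 column per group. Per the submitters' processing notes, HISAT2, Cufflinks and Cuffdiff were used with mm10. Versions, the annotation and how samples were combined are not given in the sources used here. Depth is unknown, and limma tests planned for values per sample were replaced by descriptions. Log2 ratios of (FPKM + 1) understate the change of low rows. The background was rows of 1 named gene, without predicted, Rik, LOC, microRNA, small nucleolar RNA and pseudogene names, plus the receptor rows.

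Symbols were matched to GENCODE M21 (GRCm38), which gave classes, 1-based positions and sequences. Tradd matched the name pattern but is no receptor segment and was left out. Sharing was counted as identical 75-base windows between receptor transcripts.

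Members and the 13 gene lists were chosen with earlier results of these data known. Named were all constant regions, the epidermal receptor segments, V rows at 1 FPKM or more (the 6 highest where a chain had over 12) and up to 4 counted genes per list. Other V rows, olfactory receptor rows, Cd4, Cd8b1, Cd207, Ccl21a, the assembly genes Rag2, Dntt and Ptcra and further genes outside that rule were chosen after their values were seen. Alternatives were other pseudocounts, filters, rescalings, row handling and backgrounds. Counting was tested on simulated tables. Python 3.11.15, pandas 2.3.3, numpy 2.4.6, Biopython 1.88 and matplotlib 3.10.9 were used.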

Additional observations from a re-analysis of the deposited data

How the results depend on the processing

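No paired analysis was possible because the table used holds 1 value per group, and no sample could be left out in turn for the same reason. In the genotype comparison at 300 days Trac, Trbc1 and Trbc2 stayed past the size counted, in the direction given, under the other pseudocounts and rescalings. Without a filter 21 alpha and beta rows were counted lower in cKO skin at 300 days and 21 higher in control skin at 300 against 100 days, 6 higher in cKO skin at 100 days, 6 lower in cKO skin at 300 against 100 days and 2 higher at 700 against 50 days. With a mean of at least 5 FPKM, 2 were lower in cKO skin at 300 days, 2 higher at 300 against 100 days in control skin, and 1 gamma and delta row was lower at 700 days.

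A pseudocount of 0.1 FPKM weights low values most. For cKO against control skin it gave log2 ratios at 300 days of 2.10 for Tcrg-C2 and -1.69 for Tcrg-C4, and at 100 days of -1.02 for Trac and 1.29 for Trbc1, with 1 alpha and beta row counted higher, 1 lower and 1 gamma and delta row higher. At 700 against 50 days it gave 1.37 for Trac and 3 alpha and beta rows higher. At 300 against 100 days in control skin it gave -1.13 for Tcrg-C2, 1.45 for Tcrg-C4 and 3 gamma and delta rows higher. In cKO skin over the same ages it gave 1.20 for Trbc2, 1.15 for Tcrg-C1 and 1.76 for Tcrg-C2, with 1 alpha and beta and 2 gamma and delta rows higher. A pseudocount of 0.5 FPKM gave 1.18 for Tcrg-C2 at 300 days and 1.01 for Trbc1 at 100 days in cKO against control skin, 1.04 for Trac at 700 days, and 1.10 for Trbc2 and 1.04 for Tcrg-C2 between the cKO ages. Its counts moved to 1 alpha and beta and 1 gamma and delta row higher in cKO skin at 100 days, 3 alpha and beta rows higher at 700 days, 3 gamma and delta rows higher between the control ages and 1 alpha and beta row higher between the cKO ages.

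Rescaling to equal totals gave 1.11 for Trac and 3 alpha and beta rows higher at 700 days, and 2 gamma and delta rows higher between the control ages, where a common median gave 0. These rescalings moved the median of all rows by over 0.1 in 3 cases, by 0.104 (common median, 700 against 50 days), -0.116 (equal totals, cKO against control at 100 days) and -0.179 (equal totals, control 300 against 100 days). Leaving out member rows with several symbols, summing rows of a symbol or taking every row as background could not move the receptor counts, so nothing is read from these settings. No member row with several symbols passed the filter, no receptor symbol holds several member rows, and the background does not enter the receptor counts. Chosen after seeing the data, the 100-day control group in place of the 300-day control group gave log2 ratios of -0.35 for Trac and, with the direction turned, 1.29 for Trbc1 and 0.38 for Trbc2, with 1 alpha and beta row higher, 0 lower and 1 gamma and delta row higher. The causes were not tested. Also chosen then, leaving out pseudogene V rows moved the beta V to constant region ratio of 100-day cKO skin from 1.76 to 0.857. It moved the alpha ratio from 43.9 to 24.4. Placing alpha V rows with a dv name among the delta chains, also chosen then, could move no count because none of these rows passed the filter. The depth is unknown, so how far the rows listed at 0 depend on it was not tested.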

Other observations

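Of 9 genes linked to receptor assembly in the thymus 6 had a mean of at least 1 FPKM in whole skin, among them the broadly expressed factors Tcf12 and Tcf3. The other 3, more particular to developing lymphocytes, were near 0. Rag2, a subunit of the recombinase, was between 0 and 0.139 FPKM, Dntt, which adds bases at the joins, between 0 and 0.185 FPKM, and Ptcra, the partner of the beta chain in thymocytes, between 0 and 0.0444 FPKM. Rag1 is on a row shared with B230118H07Rik and was not read. Of the 6 measured genes of that list Cd1d1, which presents lipids to T cells, was counted lower in cKO skin at 100 days (39.3 FPKM in control and 4.46 FPKM in cKO skin) and at 300 days (28.8 and 5.64 FPKM).

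Of 5 measured genes of NK cells and cytotoxic granules 2 were counted lower in cKO than in control skin at 300 days, where 5.17% of all rows were. Ccl5, a chemokine of memory T cells and NK cells, stood at 24.1 FPKM in 300-day control skin and at 1.36 FPKM or less in the other 5 groups, and it reached a mean of 1 FPKM only through that group. Nkg7 stood at 3.10 and 0.597 FPKM. Of the 6 Langerhans cell genes 3 were counted lower in that comparison beside the same 5.17%, all of them shared with other cells: Cd74 at 363 and 107 FPKM, H2-Aa at 132 and 38.5 FPKM and Mfge8 at 49.5 and 23.5 FPKM.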
